A study of Mus musculus with 12 samples.

Results

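Of the 39179 genes in the count table of pancreatic stellate cells (PSCs), 10 belonging to the Wnt pathway were selected by gene symbol from a list, and all 10 were present. They were the ligands Wnt2, Wnt2b, Wnt4 and Wnt5a, the secreted antagonists Sfrp1, Sfrp2, Dkk2 and Dkk3, the receptor Fzd1, and Axin2, a target of the pathway. The RNA came from mouse PSCs labelled as C57BL/6, an SV40-immortalised line that is 1 clone and that carried mCherry, so that the libraries sampled repeated cultures and not different animals. PSCs were grown for 72 h in low-serum medium by themselves (mono-PSC, 4 libraries), with EGFP-labelled pancreatic cancer cells (PCC, a mouse line maintained in doxycycline; 2W-PSC, 4 libraries), or with PCC and TagBFP-labelled macrophages (MØ, a commercial mouse line; 3W-PSC, 4 libraries). The total number of cells per flask was the same in each culture, so PSC number differed with the partners, and PSCs were recovered by sorting cells that were positive for mCherry and negative for EGFP and TagBFP, a gate that leaves out labelled PCC and MØ. The comparisons asked how tumour cells, alone or with MØs, altered the stellate cell transcriptome.

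Wnt proteins are secreted lipid-modified ligands that bind Frizzled receptors together with co-receptors. In the canonical branch, binding stops the destruction of β-catenin, which then enters the nucleus and switches on targets with TCF/LEF factors; other ligands, of which Wnt5a is the textbook case, mainly signal through planar polarity and calcium routes that use Ror and Ryk receptors. Secreted frizzled-related proteins (Sfrp) bind Wnts outside the cell, whereas most Dickkopf proteins (Dkk) bind LRP co-receptors. Dkk3 is the divergent family member and is counted among the antagonists here by family. In the pancreas, fibroblasts and stellate cells are known sources of both Wnt ligands and their antagonists.

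Library totals ranged from 4561817 to 8093368 counts. Levels below are CPM (counts scaled to a common library size), set with TMM factors over the 12 libraries, and 3 counts, the limit that a count of 0 allows, equalled 0.347 to 0.736 CPM depending on the library; these limits cover counting error only. Since QuantSeq counts a tag at the 3′ end of a transcript, CPM were compared between genes without division by gene length. The replicate 2 library of 2W-PSC stood apart, with Spearman correlations of 0.858 to 0.920 across genes to the other 2W-PSC libraries against 0.948 to 0.987 within all other pairs of the same culture. The 12 fibroblast markers summed to 9185 to 12942 CPM in mono-PSC, 13232 to 20290 CPM in 2W-PSC and 7307 to 8861 CPM in 3W-PSC, without overlap, although Lum and Des, markers of fibroblasts and stellate cells, stayed under 2 CPM on average in each culture. The 14 epithelial markers summed to 1.21 to 3.34 CPM in mono-PSC, 75.5 to 148 CPM in 2W-PSC and 52.9 to 90.8 CPM in 3W-PSC, led by Krt18, while Epcam never exceeded 3 counts. The 12 macrophage markers in the table summed to 10.2 to 13.4, 12.4 to 17.5 and 31.2 to 68.9 CPM in the same order. Cd14 led this sum, at means of 6.43, 8.69 and 22.8 CPM, and was thus present in mono-PSC, which held no macrophages. Emr1 had 0 counts in all 12 libraries, and Ptprc had 0 in 10, among them all of mono-PSC and 2W-PSC. Laptm5, Tyrobp and Spi1 were likewise at 0 CPM in mono-PSC and 2W-PSC, with means of 2.69, 0.897 and 0.503 CPM in 3W-PSC. Of the 12 macrophage markers, 9 reached 10 counts in a 3W-PSC library, against 4 in mono-PSC and 3 in 2W-PSC. In these bulk samples fewer cells of a type and less RNA per cell could not be told apart.

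The 10 genes fell into 3 levels of abundance. Sfrp2, Wnt5a and Dkk3 reached over 10 CPM in at least 1 culture mean, Sfrp1, Fzd1, Dkk2 and Wnt4 lay between 0.472 and 7.29 CPM, and Axin2, Wnt2b and Wnt2 were at or near the counting limit. Differences were tested with edgeR's quasi-likelihood test across all genes passing its expression filter, and a gene was called at a Benjamini-Hochberg adjusted p under 0.05. In 2W-PSC against mono-PSC, 5 of the 10 genes were tested; 1 was called lower (Sfrp2) and 0 higher, where 0.152% of all 11199 tested genes were called lower and 0.839% higher. In 3W-PSC against mono-PSC, 5 were tested; 2 were called higher (Wnt5a and Sfrp1) and 1 lower (Sfrp2), against 13.4% higher and 13.0% lower among 11551 genes. In 3W-PSC against 2W-PSC, 6 were tested, with 1 called lower (Dkk3) and 0 higher, against 4.95% lower and 5.73% higher among 11513 genes. Both comparisons with mono-PSC share its 4 libraries.

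**Figure D1:**
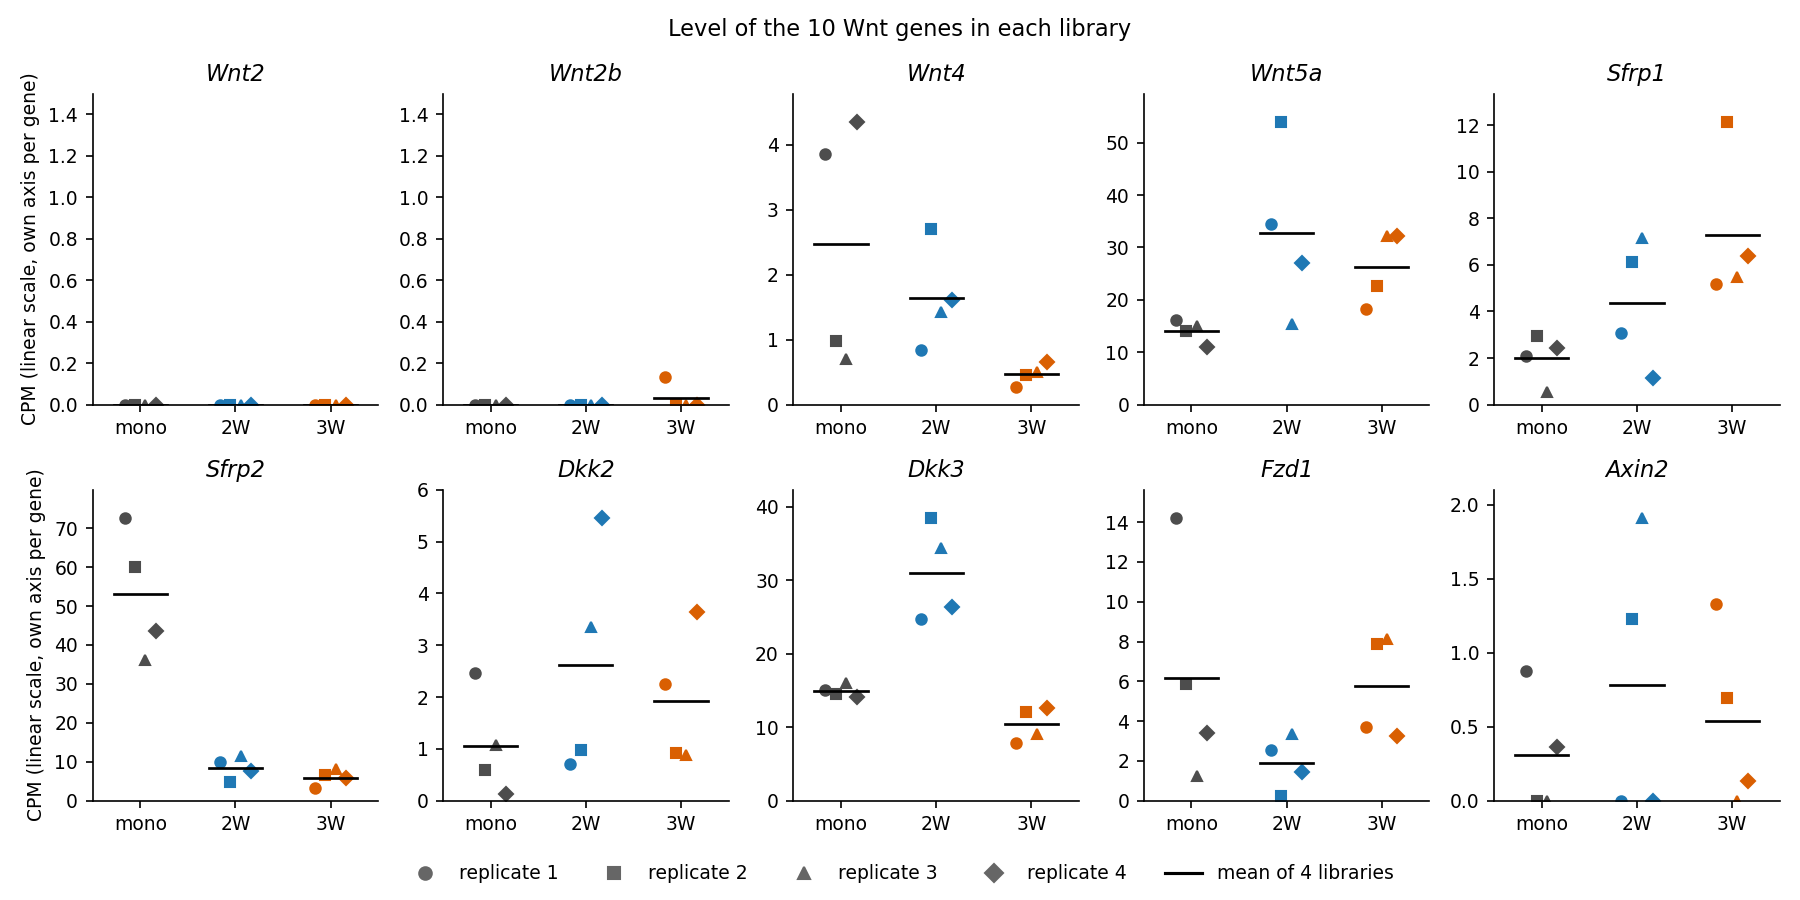
Level of each gene in CPM (linear, separate axis for each gene) by culture, with the 4 libraries as symbols by replicate number and their mean as a bar. Sfrp2 was 36.2 to 72.7 CPM in mono-PSC and at most 11.5 CPM in the other cultures, Dkk3 was highest in 2W-PSC, and Wnt2 had 0 counts throughout.

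**Figure D2:**
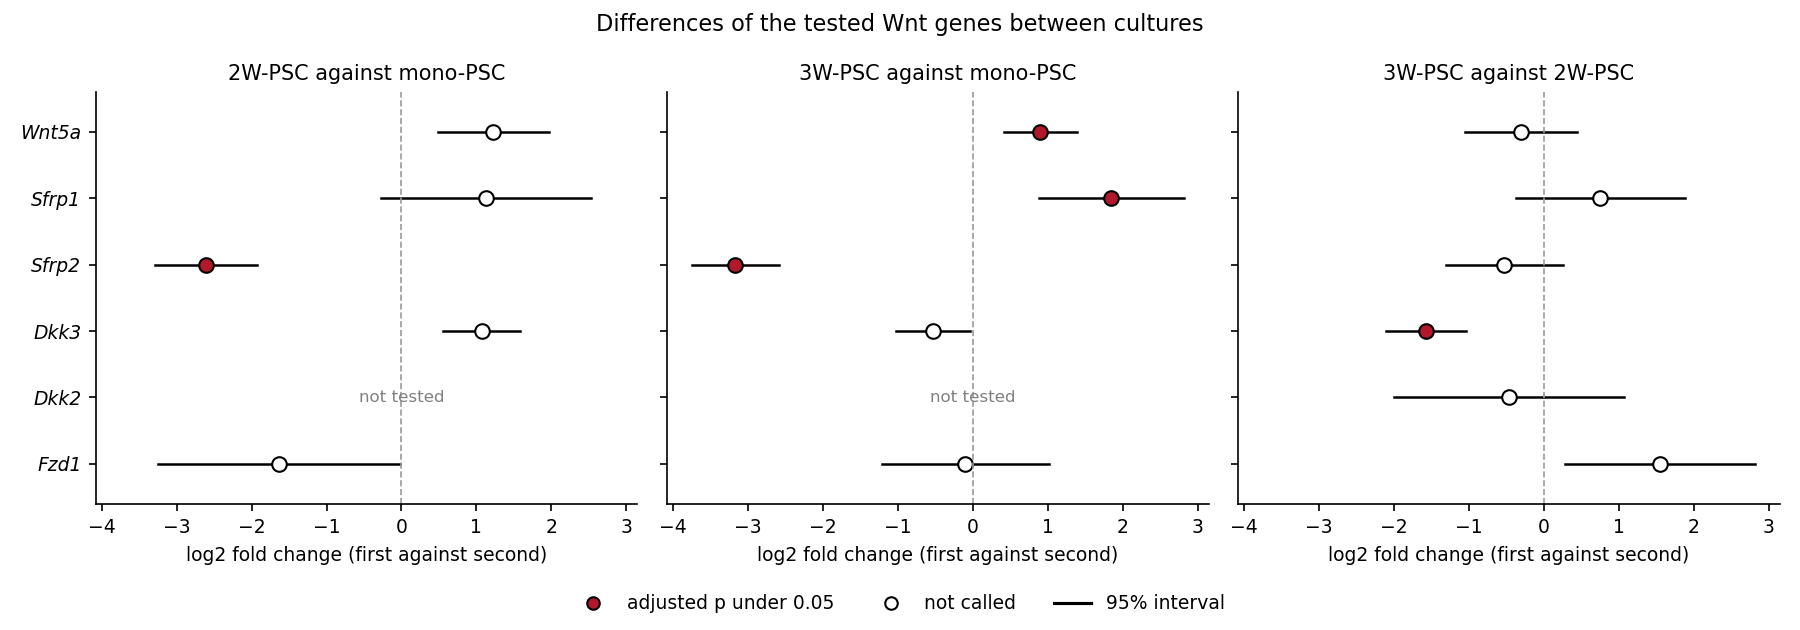
Log2 fold change (x axis, first culture against second) of the 6 genes tested, with 95% intervals from edgeR's quasi-likelihood fit; filled points have an adjusted p under 0.05. Sfrp2 was called lower in both comparisons with mono-PSC, Wnt5a and Sfrp1 higher in 3W-PSC, and Dkk3 lower in 3W-PSC than in 2W-PSC.

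Among the secreted antagonists, Sfrp2 showed the largest difference. Its level in mono-PSC was 72.7, 60.1, 36.2 and 43.7 CPM in replicates 1 to 4, a mean of 53.2 ± 16.4 (SD, n = 4). In 2W-PSC it was 9.996, 4.91, 11.5 and 7.71 CPM (8.52 ± 2.86, SD, n = 4) and in 3W-PSC 3.32, 6.48, 8.02 and 5.85 CPM (5.92 ± 1.96, SD, n = 4). Every co-culture library lay under every mono-PSC library. Sfrp2 fell by 2.61 on the log2 scale in 2W-PSC against mono-PSC (SE 0.312, 6.10-fold lower, edgeR adjusted p = 0.00101), which placed it 19th of 11199 genes by p. In 3W-PSC against mono-PSC it fell by 3.17 (SE 0.276, 8.98-fold lower, edgeR adjusted p = 2.14e-07). The 2 co-cultures overlapped, and their difference of -0.53 (95% interval -1.31 to 0.25, edgeR adjusted p = 0.380) was not separated from 0 at this spread. Both calls were made under every alternative setting run, with the log2 fold change between -2.79 and -2.44 for 2W-PSC and between -3.35 and -2.97 for 3W-PSC; without 2W-PSC replicate 2, the library that stood apart, the 2W-PSC value was -2.44. Sfrp2 lies on chr3:83766321-83774316 (GRCm38, plus strand), and 347 of the last 500 bases of its span are exonic also in the opposite-strand gene Gm26771, which had 6 to 13 counts per library in mono-PSC, 4 to 10 in 2W-PSC and 1 to 7 in 3W-PSC, whereas Sfrp2 itself had 204 to 414, 20 to 72 and 25 to 63 counts. Whether reads were counted by strand is not given in the sources used here. The epithelial marker sum rose in both co-cultures, where Sfrp2 fell, from at most 3.34 CPM in mono-PSC to at least 52.9 CPM. Its part in the Sfrp2 difference was not tested.

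Sfrp1 (chr8:23411502-23449632, plus strand), a closely related antagonist, differed in the other direction at a lower level. It was 2.11, 2.94, 0.533 and 2.42 CPM in mono-PSC (2.00 ± 1.04, SD, n = 4), 3.10, 6.13, 7.16 and 1.12 CPM in 2W-PSC (4.38 ± 2.77, SD, n = 4), and 5.18, 12.1, 5.47 and 6.37 CPM in 3W-PSC (7.29 ± 3.28, SD, n = 4). All 3W-PSC libraries were above all mono-PSC libraries, and 2W-PSC overlapped both. Sfrp1 rose in 3W-PSC against mono-PSC by 1.85 on the log2 scale (SE 0.460, 3.61-fold, edgeR adjusted p = 0.00635). The 2W-PSC difference from mono-PSC was 1.13 (95% interval -0.27 to 2.53, edgeR adjusted p = 0.863) and that of 3W-PSC from 2W-PSC 0.76 (95% interval -0.37 to 1.88, edgeR adjusted p = 0.389), so that neither step towards the 3W level was called.

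Dkk3 (chr7:112116017-112159057, minus strand) was highest in 2W-PSC and lowest in 3W-PSC. It was narrow in mono-PSC at 15.1, 14.5, 16.0 and 14.2 CPM (14.9 ± 0.799, SD, n = 4). In 2W-PSC it was 24.8, 38.5, 34.4 and 26.3 CPM (31 ± 6.54, SD, n = 4) and in 3W-PSC 7.84, 12.03, 9.04 and 12.6 CPM (10.4 ± 2.30, SD, n = 4). No libraries of different cultures overlapped. Dkk3 fell in 3W-PSC against 2W-PSC by 1.57 on the log2 scale (95% interval -2.10 to -1.04, 2.97-fold lower, edgeR adjusted p = 0.00254), a call made under every alternative setting and at -1.45 without 2W-PSC replicate 2. The 2W-PSC level was 2.10-fold that of mono-PSC without passing the threshold (log2 1.07, SE 0.235, edgeR adjusted p = 0.0553); it was called with all 12 libraries in a joint fit (adjusted p = 0.0208), by DESeq2 (0.00314) and without 2W-PSC replicate 2 (0.0472), while over all alternatives the adjusted p ran up to 0.205. The summed fibroblast markers followed the order of Dkk3 over the 3 cultures, and their part in it was not tested. The 3W-PSC difference of Dkk3 from mono-PSC was -0.53 (95% interval -1.02 to -0.035, edgeR adjusted p = 0.106).

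Dkk2, an antagonist of LRP co-receptors, had few counts. Replicates 1 to 4 gave 14, 3, 6 and 1 counts in mono-PSC, 5, 4, 21 and 34 in 2W-PSC and 17, 8, 7 and 28 in 3W-PSC. The 3 cultures overlapped throughout, with means of 1.06 ± 1.01, 2.62 ± 2.23 and 1.93 ± 1.31 CPM (SD, n = 4 each). Only 3W-PSC against 2W-PSC passed the expression filter, with a log2 difference of -0.46 (95% interval -1.99 to 1.07, edgeR adjusted p = 0.723).

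The 4 antagonists together changed in make-up as well as in sum. Their summed level was 71.2 ± 17.5 CPM in mono-PSC, 46.5 ± 8.39 in 2W-PSC and 25.5 ± 5.70 in 3W-PSC (SD, n = 4 each). Sfrp2 made up 67.3 to 78.7% of that sum in the mono-PSC libraries, 9.71 to 25.9% in 2W-PSC and 17.9 to 34.2% in 3W-PSC. Dkk3 was 16.3 to 29.7%, 61.0 to 76.2% and 38.1 to 44.3% in the same order, without overlap. The share of Sfrp1 was 0.990 to 4.01% in mono-PSC, 2.77 to 12.7% in 2W-PSC and 22.4 to 38.5% in 3W-PSC. Sfrp2 was thus the most abundant of the 4 in every mono-PSC library and Dkk3 in every 2W-PSC library, whereas in 3W-PSC Dkk3, Sfrp2 and Sfrp1 lay closer together, with Sfrp1 above Dkk3 in replicate 2. These shares rest on the same values as the tests above and are given without a test of their own.

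**Figure D3:**
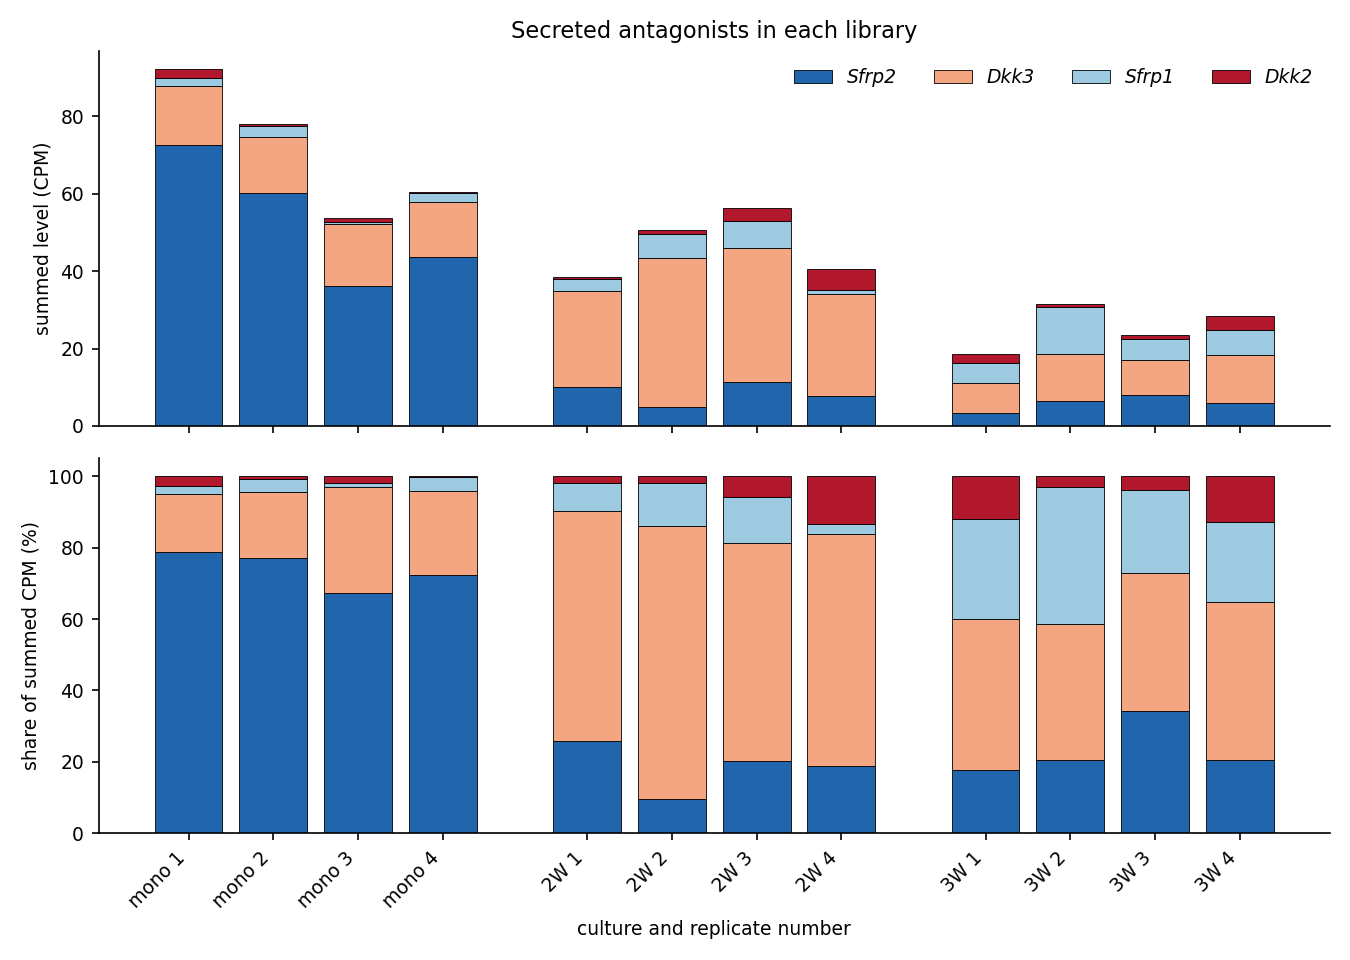
Summed CPM of the 4 secreted antagonists (upper panel) and each gene's share of that sum in % (lower panel) for each library, ordered by culture and replicate number. Mono-PSC bars are mostly Sfrp2, 2W-PSC bars mostly Dkk3, and the 3W-PSC bars are the lowest, at 18.6 to 31.6 CPM.

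Of the 4 ligands, Wnt5a (chr14:28504750-28527448, plus strand) was the most abundant in every library. It shares 358 exonic bases with the opposite-strand gene Gm2670, which had 0 counts in all libraries, and none of these bases lie in its last 500. It was 16.1, 14.1, 15.1 and 11.0 CPM in mono-PSC (14.1 ± 2.22, SD, n = 4), 34.5, 54.0, 15.4 and 26.97 CPM in 2W-PSC (32.7 ± 16.2, SD, n = 4), and 18.3, 22.7, 32.2 and 32.2 CPM in 3W-PSC (26.4 ± 6.99, SD, n = 4). Each 3W-PSC library exceeded each mono-PSC library, while 2W-PSC replicate 3 lay within the mono-PSC range. Wnt5a rose in 3W-PSC against mono-PSC by 0.90 on the log2 scale (SE 0.231, 1.87-fold, edgeR adjusted p = 0.00799); a joint fit of all 12 libraries gave the same 0.90, but without a call (adjusted p = 0.0607). The mean of 2W-PSC was higher than that of 3W-PSC, yet with its wider spread the difference from mono-PSC was not called (log2 1.23, 95% interval 0.49 to 1.97, edgeR adjusted p = 0.162); it was called by DESeq2 (adjusted p = 0.0368) and without 2W-PSC replicate 3 (edgeR adjusted p = 0.0368). The 2 co-cultures did not separate (log2 -0.30, 95% interval -1.05 to 0.45, edgeR adjusted p = 0.619).

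Wnt4, a ligand active in kidney and gonad development, ran the other way at a few counts per library. It had 22, 5, 4 and 36 counts in mono-PSC replicates 1 to 4, 6, 11, 9 and 10 in 2W-PSC, and 2, 4, 4 and 5 in 3W-PSC, or 2.48 ± 1.90, 1.65 ± 0.774 and 0.472 ± 0.159 CPM (SD, n = 4 each). On the CPM scale the 3W-PSC libraries, at 0.266 to 0.650, lay under all 8 others, of which the lowest was 0.710. In counts, 3W-PSC and mono-PSC overlapped, with 4 in mono-PSC replicate 3 and 5 in 3W-PSC replicate 4. Their separation thus rests on scaling by library depth at a few counts. Wnt4 did not pass the expression filter in any comparison. A two-sided exact permutation test gave p = 0.0286 for 3W-PSC against each of the other cultures, the smallest that 4 against 4 libraries allow and not adjusted for the number of genes; without the filter, edgeR gave an adjusted p of 0.0168 against mono-PSC and 0.245 against 2W-PSC. Wnt2 had 0 counts in all 12 libraries and Wnt2b had 1 count, in 3W-PSC replicate 1, and a count of 0 allows a level of up to 0.736 CPM in the shallowest library.

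Across the 19 Wnt ligands of the mouse genome, the summed level was 19.5 ± 2.79 CPM in mono-PSC, 41.1 ± 16.9 in 2W-PSC and 34.6 ± 6.66 in 3W-PSC (SD, n = 4 each). Wnt5a made up 54.2 to 86.7%, 69.3 to 85.3% and 66.7 to 82.4% of it, overlapping ranges, so Wnt5a was the main Wnt ligand transcript of these PSCs in each culture. Wnt4 contributed 3.85 to 21.4% in mono-PSC and 0.966 to 1.66% in 3W-PSC.

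Fzd1, a Wnt receptor, spread widely between replicates. It was 14.2, 5.88, 1.24 and 3.39 CPM in mono-PSC (6.18 ± 5.68, SD, n = 4), 2.53, 0.245, 3.34 and 1.44 CPM in 2W-PSC (1.89 ± 1.35, SD, n = 4), and 3.72, 7.86, 8.14 and 3.25 CPM in 3W-PSC (5.74 ± 2.62, SD, n = 4). The mono-PSC libraries alone spanned the range of the other cultures except the lowest 2W-PSC library. The log2 difference was -1.63 in 2W-PSC (edgeR adjusted p = 0.658) and -0.098 in 3W-PSC against mono-PSC (edgeR adjusted p = 0.910). Between 3W-PSC and 2W-PSC it was 1.55 (95% interval 0.28 to 2.82, edgeR adjusted p = 0.113), which passed only with DESeq2 (adjusted p = 0.0484).

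Axin2, a scaffold of the β-catenin destruction complex and the classical feedback target of canonical signalling, was near the limit of detection. Its counts were 5, 0, 0 and 3 in mono-PSC, 0, 5, 12 and 0 in 2W-PSC, and 10, 6, 0 and 1 in 3W-PSC. Each culture held libraries at 0 and libraries with counts, and no difference was detectable at this depth.

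Upstream sequence was read for the 7 of 10 members matched in the RefSeq promoter table (GRCm38.p6). The 250 bases before the start of Sfrp2, the gene that changed most, of Dkk2, which shares a feature with it, and of Axin2, the pathway target, are shown 5′ to 3′ on the coding strand, all 3 being plus-strand genes, at chr3:83766071-83766320, chr3:132085042-132085291 and chr11:108920099-108920348. Capitals mark the letters ATAAAA, which resemble the core of a TATA box and had to begin 21 to 50 bases before the start, a window set after the sequences were seen.
Sfrp2: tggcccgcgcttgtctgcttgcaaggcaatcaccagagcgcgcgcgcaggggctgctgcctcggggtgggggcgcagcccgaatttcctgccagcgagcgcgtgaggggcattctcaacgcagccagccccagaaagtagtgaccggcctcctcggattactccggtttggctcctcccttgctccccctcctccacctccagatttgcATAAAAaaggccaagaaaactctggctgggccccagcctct
Dkk2: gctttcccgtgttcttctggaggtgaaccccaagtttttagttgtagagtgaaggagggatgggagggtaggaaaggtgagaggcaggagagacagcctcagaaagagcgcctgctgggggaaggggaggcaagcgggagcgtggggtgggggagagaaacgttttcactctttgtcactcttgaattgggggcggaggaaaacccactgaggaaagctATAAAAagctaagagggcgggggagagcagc
Axin2: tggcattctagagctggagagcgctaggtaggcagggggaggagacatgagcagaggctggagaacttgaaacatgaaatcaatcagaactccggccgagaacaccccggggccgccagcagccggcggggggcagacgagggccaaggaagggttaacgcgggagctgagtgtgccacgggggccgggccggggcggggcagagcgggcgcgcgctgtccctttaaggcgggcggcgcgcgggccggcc
In that window these letters were found in Sfrp2 and Dkk2 of the 7 members and in 2.19% of 32851 promoters. Farther upstream the 250 bases of Wnt2 and Fzd1 held them too. Because the window was set after the sequences were seen, no excess among the members is read from this. None of the 7 held CTTTGA followed by A or T on either strand, the core letters of TCF/LEF sites, which 7.48% of all promoters held; likewise none held TTCNNNGAA, a STAT-type run (7.02%), or TTGCNNAAT, a C/EBP-type run (2.11%), both searched on both strands. GC content was 63.6% for Sfrp2, 55.6% for Dkk2 and 69.2% for Axin2, against a median of 52.4% over all promoters. Absence in this window says only that these letters are not there.

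The genes most like each well-measured member were read from Pearson's r of log2 CPM over the 12 libraries, among 11776 genes. Cdk15 (r = 0.969), Rcor2 (0.966) and Rgs2 (0.960) were most like Sfrp2. Slc40a1 (r = 0.925), Crip1 (0.924) and Cygb (0.918) were most like Dkk3, and Ino80 (0.922), Uggt2 (0.907) and Gramd4 (0.905) most like Sfrp1. Kctd11 (r = 0.932), Xrn1 (0.881) and Rps6_ps1 (0.877) were most like Wnt5a. Without 2W-PSC replicate 2, Kctd11 and the Sfrp2 trio stayed within the top 3, as did Uggt2 for Sfrp1 and Crip1 for Dkk3. The others left the top 3: Xrn1 ranked 30 and Rps6_ps1 15 for Wnt5a, Slc40a1 9 and Cygb 11 for Dkk3, and Ino80 5 and Gramd4 6 for Sfrp1. Among the members themselves, Wnt5a and Sfrp2 had r = -0.69 (-0.67 without that library) and Dkk3 and Sfrp2 r = -0.024 over 12 libraries. The libraries share cultures and depth, so these values describe likeness in 3 culture types and no more.

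In the wider pathway, 117 genes were sorted into 8 lists, of which 114 were in the table and 57, 63 and 64 were tested in the 3 comparisons. In 2W-PSC against mono-PSC, 2 of 57 were called higher and 1 lower, beside 0.839% and 0.152% of all genes tested. In 3W-PSC against mono-PSC, 14 of 63 were called higher and 6 lower, beside 13.4% and 13.0% of all genes, and in 3W-PSC against 2W-PSC, 4 of 64 higher and 3 lower, beside 5.73% and 4.95%. The lower calls in 3W-PSC against mono-PSC and the calls in 3W-PSC against 2W-PSC were thus near or below the share over all genes. These counts include the members. The 2 higher calls in 2W-PSC against mono-PSC were Lef1, low in mono-PSC, and Wnt7b, with 0 counts there. Both passed the filter through the co-culture libraries, where they were high, as they did in 3W-PSC against mono-PSC. The higher calls against mono-PSC are therefore not read as a result about these lists. By role, the 19 core β-catenin pathway components gave 0 higher and 2 lower calls in 3W-PSC against mono-PSC and 0 calls in the other comparisons, and their median log2 fold change was between -0.056 and 0.16, beside medians of 0.0025 to 0.020 over all genes. The 2 lower calls were Dvl2, which relays the signal from Frizzled (log2 -0.83, edgeR adjusted p = 0.00212), and Tcf7l1, a TCF/LEF factor known mainly as a repressor (log2 -0.68, edgeR adjusted p = 0.00858). Of 18 β-catenin targets in the table, 6 passed the expression filter in 2W-PSC against mono-PSC and 9 in 3W-PSC against mono-PSC; the additional 3 (Wisp2, Tcf7 and Bambi) were low in mono-PSC and passed through the 3W-PSC libraries, where they were high. Of the 6 tested in both, 4 were called higher in 3W-PSC against mono-PSC (Cd44, Lef1, Myc and Ccnd1) and 0 lower. Wisp2 and Tcf7 were also called higher. Lef1 passed through the co-culture libraries in both comparisons, and Myc was at 7 counts in mono-PSC replicate 2. Testing in both therefore did not remove this selection, and these calls are not read as a result about the targets. Ccnd1 stood at 256 ± 30.2, 402 ± 59.4 and 398 ± 40.8 CPM in mono-PSC, 2W-PSC and 3W-PSC (SD, n = 4 each). Its log2 difference from mono-PSC was 0.63 in 3W-PSC and 0.66 in 2W-PSC, the latter not called (edgeR adjusted p = 0.189). Wisp1, another of the 6, went the other way, at 245 ± 33.6, 288 ± 46.1 and 190 ± 16.3 CPM in mono-PSC, 2W-PSC and 3W-PSC (SD, n = 4 each). It was not called in 3W-PSC against mono-PSC (log2 -0.37, edgeR adjusted p = 0.0785) but was called lower against 2W-PSC (log2 -0.59, edgeR adjusted p = 0.0414). Tcf7l1 and Dvl2 above, Ccnd1, Wisp1 and Bambi, and Fzd2, Rspo3 and Tcf7l2 below, were named after their values were seen.

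**Figure D4:**
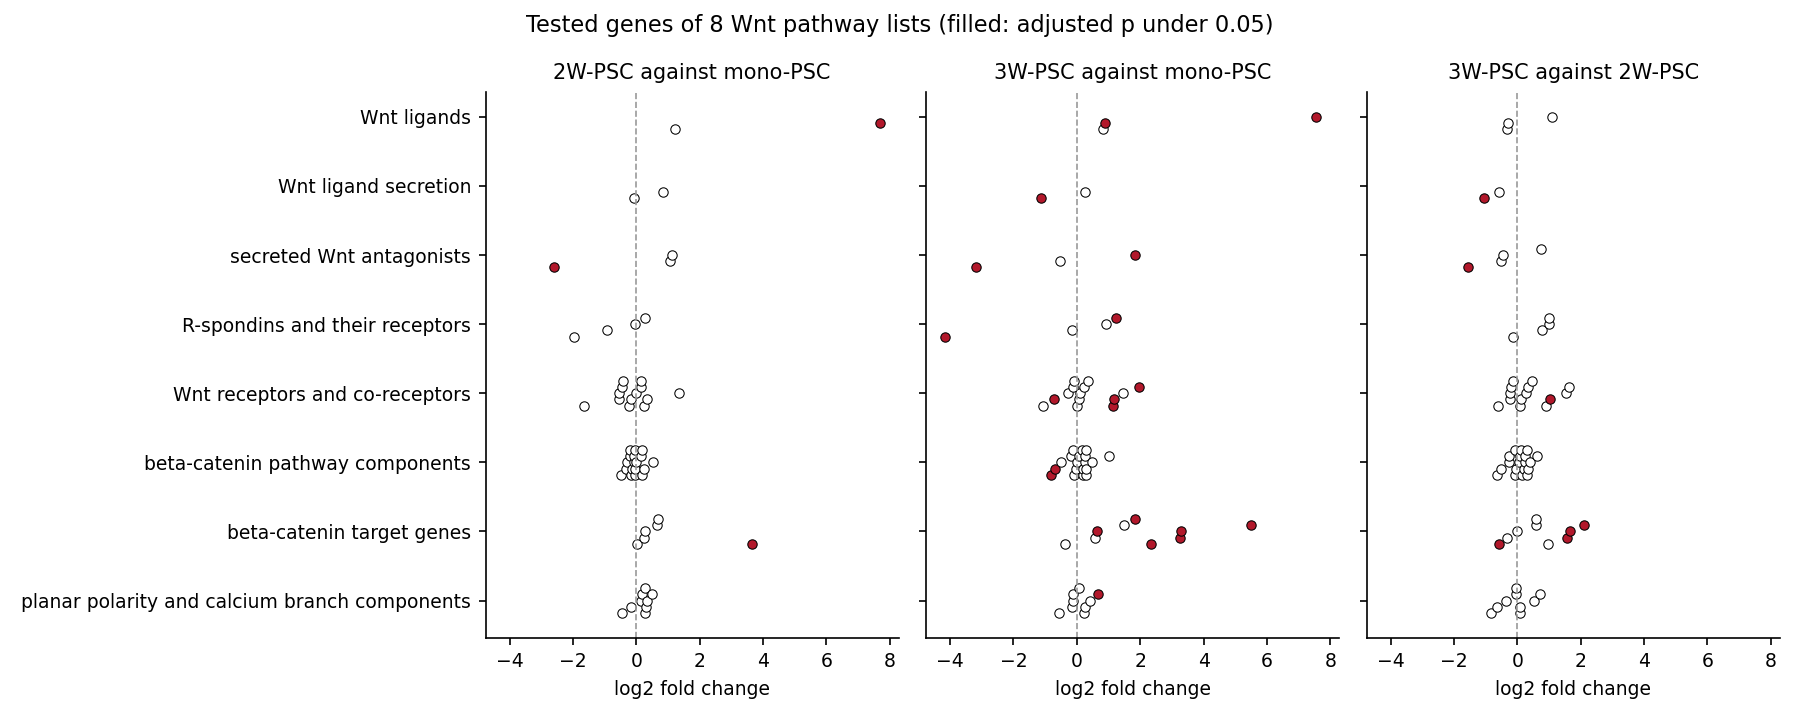
Log2 fold change (x axis) of every tested gene on 8 Wnt pathway lists, with a panel for each comparison and filled points for adjusted p under 0.05. The median of the β-catenin core is near 0, with Dvl2 at -0.83 and Tcf7l1 at -0.68 called lower in 3W-PSC against mono-PSC, and the filled target points to the right there include Cd44, Lef1 and Myc; the far-right ligand point is Wnt7b, whose fitted value depends on the prior count because mono-PSC had 0 counts, and the target point beyond 5 is Wisp2, with 3 counts in mono-PSC.

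Lef1, the TCF/LEF factor that is itself a target, was 0.980 ± 1.14 CPM in mono-PSC, 13.6 ± 8.77 in 2W-PSC and 10.7 ± 2.16 in 3W-PSC (SD, n = 4 each), and every co-culture library exceeded every mono-PSC library. It rose by 3.66 on the log2 scale in 2W-PSC (edgeR adjusted p = 0.0272) and 3.27 in 3W-PSC (edgeR adjusted p = 0.000141). The 2W-PSC call was lost on leaving out mono-PSC replicate 1, 2 or 3 or 2W-PSC replicate 1 or 4, where the adjusted p rose to between 0.0659 and 0.120. Of the 29 counts of Lef1 in mono-PSC, 22 came from replicate 4, and without that library the log2 fold change was 4.93 in 2W-PSC and 4.58 in 3W-PSC. Tcf7, a second factor of that family, rose in 3W-PSC (0.300 ± 0.401 to 3.56 ± 0.789 CPM, SD, n = 4; log2 3.30, edgeR adjusted p = 0.00197; 4.67 on the log2 scale without mono-PSC replicate 4). Of the TCF factors with higher CPM, Tcf7l1, called lower there, was 66.3 ± 12.7 CPM in mono-PSC and 41.7 ± 5.59 in 3W-PSC, and Tcf7l2 was 79.6 ± 17.3 and 57.0 ± 8.14 CPM (SD, n = 4 each; log2 -0.49, edgeR adjusted p = 0.0519, not called). Cd44, an adhesion receptor, stood at 92.0 ± 31.3, 110 ± 52.6 and 328 ± 37.1 CPM (SD, n = 4 each) and rose in 3W-PSC against mono-PSC (log2 1.82, edgeR adjusted p = 5.98e-06) and 2W-PSC (log2 1.58, edgeR adjusted p = 0.0118). Wisp2, a secreted matricellular protein also named Ccn5, had 3 counts in all mono-PSC libraries together, 1.43 ± 0.299 CPM in 2W-PSC and 6.17 ± 0.691 in 3W-PSC (SD, n = 4), and rose between the co-cultures by 2.10 on the log2 scale (edgeR adjusted p = 0.00480). Myc, a growth-driving transcription factor, rose by 1.67 between them (edgeR adjusted p = 0.0360), and that call was lost without any of 5 single libraries (2W-PSC replicate 1 or 4, 3W-PSC replicate 1, 2 or 3), with adjusted p up to 0.111, and in the joint fit of 12 libraries (adjusted p = 0.0724). Many signals besides Wnt act on these genes.

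Among ligands and their export, Wnt7b, a ligand of epithelia, had 0 counts in all mono-PSC libraries, 18 to 33 counts per library in 2W-PSC (4.25 ± 1.57 CPM, SD, n = 4) and 19 to 37 in 3W-PSC (3.35 ± 1.19 CPM, SD, n = 4). Against the mean CPM of 3 counts per mono-PSC library it was at least 8.46-fold higher in 2W-PSC (edgeR adjusted p = 0.00760) and at least 6.67-fold higher in 3W-PSC (edgeR adjusted p = 0.000106). The summed epithelial markers were likewise at 1.21 to 3.34 CPM in mono-PSC and at 52.9 CPM or more in every co-culture library, and their part in the Wnt7b and Lef1 values was not tested. Wls, the carrier that takes Wnts to the cell surface, was 409 ± 70.1, 388 ± 40.5 and 189 ± 19.5 CPM (SD, n = 4 each). It fell in 3W-PSC by 1.12 on the log2 scale against mono-PSC (edgeR adjusted p = 5.51e-05) and by 1.04 against 2W-PSC (edgeR adjusted p = 0.00228), with all 3W-PSC libraries at or under 206 CPM and all others at 324 or more. The summed macrophage markers separated the same libraries, at 31.2 CPM or more in 3W-PSC and at most 17.5 CPM elsewhere; their part in the 3W-PSC values of Wls, Cd44, Dkk3 and Sfrp1 was not tested.

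**Figure D5:**
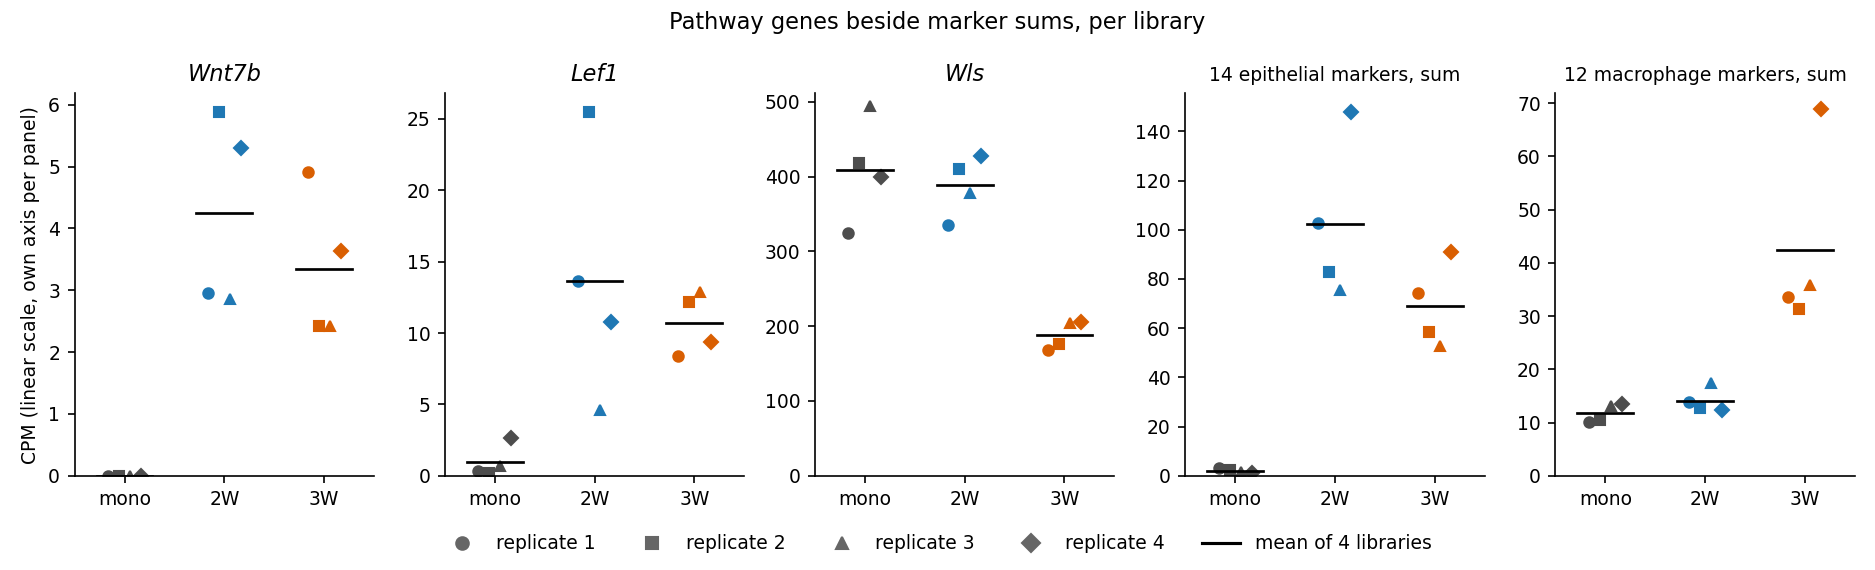
CPM (linear, separate axis for each panel) of Wnt7b, Lef1 and Wls and the summed CPM of 14 epithelial and 12 macrophage markers, by culture, with symbols for replicates and a bar for the mean of 4 libraries. Wnt7b and the epithelial sum were at or near 0 only in mono-PSC, and Wls was lowest in 3W-PSC, where the macrophage sum was highest at 31.2 to 68.9 CPM.

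R-spondins amplify Wnt signalling by holding back the ligases Znrf3 and Rnf43, which remove Frizzleds from the membrane. Rspo2 was 11.6 ± 6.90 CPM in mono-PSC, 2.85 ± 1.77 in 2W-PSC and 0.628 ± 0.363 in 3W-PSC (SD, n = 4 each), and it fell by 4.16 on the log2 scale in 3W-PSC against mono-PSC (edgeR adjusted p = 1.85e-05). Rspo2 passed the filter there through mono-PSC, where it was high at 29 to 106 counts per library, against 1 to 7 in 3W-PSC. This fall is therefore not read as a result about R-spondins, and Rspo2 was not tested in 3W-PSC against 2W-PSC. Rspo3, an R-spondin with higher CPM, was 23.5 ± 7.08, 12.1 ± 2.39 and 20.96 ± 7.56 CPM (SD, n = 4 each) and was called in none of the 3 comparisons (log2 -0.17 in 3W-PSC against mono-PSC, edgeR adjusted p = 0.689). Znrf3 rose in the same comparison from 3.27 ± 1.49 to 7.97 ± 1.02 CPM (SD, n = 4; log2 1.25, edgeR adjusted p = 0.0171). Of 14 receptors and co-receptors tested there, 3 rose and 1 fell, beside 13.4% higher and 13.0% lower over all genes. The one that fell was Fzd2, the Frizzled with the highest CPM in each culture, from 103 ± 26.5 to 62.7 ± 7.28 CPM (SD, n = 4; log2 -0.72, edgeR adjusted p = 0.00742). Ptk7, a co-receptor of the planar polarity branch, was 7.34 ± 6.80, 9.04 ± 9.34 and 28.6 ± 6.67 CPM (SD, n = 4 each; log2 1.95 in 3W-PSC against mono-PSC, edgeR adjusted p = 0.00177), and had 0 counts in 2W-PSC replicate 2. The Ptk7 call was lost in the joint fit (adjusted p = 0.0703), and without mono-PSC replicate 1 the log2 fold change was 2.78. Ror2, a receptor for Wnt5a, was 4.18 ± 1.62, 4.58 ± 1.08 and 9.39 ± 1.45 CPM (SD, n = 4 each) and rose in 3W-PSC against mono-PSC (log2 1.14, edgeR adjusted p = 0.0191; 0.0612 without 3W-PSC replicate 2). Fzd7, a Frizzled receptor, rose by 1.19 in 3W-PSC against mono-PSC (edgeR adjusted p = 0.0251), a call lost without mono-PSC replicate 2 or 3 or 3W-PSC replicate 2 or 3, where the adjusted p was 0.0590 to 0.0677.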

How the data were processed

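The authors prepared QuantSeq 3′ libraries from RNA of mCherry-sorted PSCs, checked and trimmed single-end reads with FastQC and trimming, mapped reads with STAR (GRCm38) and made gene counts with featureCounts on Ensembl release 75. The deposited values, which the methods call normalised, were whole-number counts per gene that were not normalized; strand setting and use of molecular identifiers are not given in the sources used here. Counts were tested in R 4.3.3 with edgeR 4.0.16 (filterByExpr, TMM, glmQLFit, glmQLFTest; prior count 0.125) on the 8 libraries of each comparison, with Benjamini-Hochberg adjustment over all genes tested; SE is the log2 fold change over the square root of F. DESeq2 1.42.0 was an alternative, with another scaling, other filters, a joint fit, the replicate number as a block and each library left out in turn. Single values were compared by exact permutation of log2(CPM + 0.5). Members and lists were chosen with earlier results of these data known; besides all 10 members, the text names pathway genes called with an absolute log2 fold change above 1, at most 4 of smallest adjusted p per list and comparison, and for each called member the 3 genes with the highest r. On simulated counts edgeR called 85.4%, 94.8% and 78.4% of 4-fold changes and 22.2%, 66.3% and 22.1% of 2-fold changes in 2W-PSC against mono-PSC, 3W-PSC against mono-PSC and 3W-PSC against 2W-PSC (11019, 11382 and 11346 genes). Of edgeR's calls 11.1%, 4.29% and 5.83% were false, against 20.1%, 12.7% and 22.0% of those by DESeq2. The simulations changed far fewer genes than were called in the comparisons with 3W-PSC and held no library that stood apart. These percentages therefore need not hold for the real libraries.

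The labels number replicates 1 to 4 in each culture as biological replicates without saying what a number shares; p-values measure the spread between these cultures of 1 clone. Deviations of same-numbered 2W-PSC and mono-PSC libraries correlated at 0.371, 0.296, 0.237 and 0.109 for replicates 1 to 4, but mono-PSC replicate 4 correlated best with 2W-PSC replicate 2. The replicate number was used as a block in an alternative fit of each comparison. Positions come from GENCODE M21 on GRCm38.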

Additional observations from a re-analysis of the deposited data

Results flagged for a closer look

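Sfrp1 in 3W-PSC replicate 2 stood at 12.1 CPM, far from the other 3W-PSC libraries, which lay between 5.18 and 6.37 CPM; the gap was 0.830 of the range of the 4 libraries, just past the 95% critical value of Dixon's test. Of 22 groups of member values examined, chance flags about 1 in 20. Without that library, Sfrp1 differed between 3W-PSC and mono-PSC by 1.49 on the log2 scale (edgeR adjusted p = 0.0464), against 1.85 with it.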

How the results depend on the processing

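Of the recomputed differences of single members, 220 kept their direction and side of the threshold, 6 passed it anew, 1 lost its call and 6 reversed. The count of genes called in 2W-PSC against mono-PSC, 111, was 177 without a filter, 57 with at least 10 counts in every library, 218 with all 12 libraries in a joint fit, 254 with DESeq2, and 61 to 233 on leaving out single libraries, the highest without 2W-PSC replicate 2. The member count there, 1, was 2 in the joint fit, 3 with DESeq2 and 1 to 2 on leaving out single libraries. In 3W-PSC against mono-PSC, 3054 genes became 2031 in the joint fit and 2228 to 4266 on leaving out single libraries, with 3 members called under each of the latter and 2 to 4 over all alternatives; in 3W-PSC against 2W-PSC, 1230 became 1902 with DESeq2 (2 members in place of 1) and 497 to 2107 on leaving out single libraries, the highest without 2W-PSC replicate 2. Calls among the pathway lists ranged from 1 to 7, 11 to 26 and 4 to 12 in the 3 comparisons; these alternatives were added after the data were seen, and Ror2 in 3W-PSC against 2W-PSC was called in 5 of 15. Directions reversed only for differences that were not called: Fzd1 in 3W-PSC against mono-PSC was 0.14 on the log2 scale with the replicate block and 0.71, 0.067 and 0.10 without mono-PSC replicate 1, 3W-PSC replicate 1 and 3W-PSC replicate 4, within a range of -0.43 to 0.71. Wnt5a in 3W-PSC against 2W-PSC was 0.040 without 2W-PSC replicate 2 (range -0.55 to 0.040), and Dkk2 was 0.17 without 2W-PSC replicate 4 (range -0.96 to 0.17). The causes were not tested.

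The replicate block changed no call of a member. It gave 135, 3092 and 752 genes called in the 3 comparisons, the last from 1230. In 3W-PSC against mono-PSC and against 2W-PSC same-numbered libraries correlated at 0.0077 to 0.127 and -0.048 to 0.156. Fewer libraries there correlated best with their own number than in 2W-PSC against mono-PSC, so pairing by number was not shown for them.

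Depth limits Wnt2 and Wnt2b, with 0 and 1 counts in all, Axin2, with 0 to 12 counts per library, and Dkk2 and Wnt4, which failed the filter in 2 and 3 comparisons. In the simulations 22.2% of 2-fold changes were called in 2W-PSC against mono-PSC, so differences of that size can be missed.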
